A study of Mus musculus with 6 samples.

Results

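The ephrins and Eph receptors described here are 10 genes of the palatal shelves: the ligands Efna1, Efna5, Efnb1 and Efnb2, the EphB receptors Ephb1, Ephb2 and Ephb3, and the EphA receptors Epha3, Epha4 and Epha7. They were chosen by name, as the rows of the gene table that carry these symbols, and all 10 were found among 49492 rows and all 10 passed the filter on low counts that left 19284 genes. Poly(A) RNA was measured at E14.5 in palatal shelves, the paired outgrowths that form the roof of the mouth, of C57BL mouse embryos. The 3 control libraries (212, 213 and 220) came from PRMT1 fl/fl embryos, in which the arginine methyltransferase gene Prmt1 carries loxP sites. The 3 deletion libraries (208, 211 and 221) came from Wnt1-Cre; PRMT1 fl/fl embryos, which have the same alleles and a Cre recombinase driven by Wnt1 regulatory sequence, which acts in neural crest cells, the source of most mesenchyme of the palate. Epithelium, endothelium and muscle of the shelf have other origins and are not targeted. No group carried Cre without the floxed alleles, so effects of Cre and of the deletion cannot be told apart.

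Eph receptors are receptor tyrosine kinases, and their ligands, the ephrins, are held in the membrane of neighbouring cells, so that signalling needs cell contact. A-type ephrins are anchored by a lipid and mainly bind EphA receptors, whereas B-type ephrins span the membrane, mainly bind EphB receptors and also signal back into their own cell. In the face, loss of ephrin-B1 or joint loss of EphB2 and EphB3 causes cleft palate in mice, and mutations of human EFNB1 cause craniofrontonasal syndrome.

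Among these genes Epha4 was the member that rose in the Prmt1 deletion libraries, by 1.31-fold. Epha7 had the same estimate, 1.31-fold, with more spread and did not pass the threshold. Ephb2, with an estimate 1.17-fold lower, also did not pass. The sequences just upstream of these 3 genes are shown because they are the members with the largest estimates. Each run is the 250 bases before the RefSeq start on GRCm38.p6, written 5′ to 3′ on the strand of the gene: chr1:77515089-77515338 (minus strand) for Epha4, chr4:28812881-28813130 (plus strand) for Epha7 and chr4:136836013-136836262 (minus strand) for Ephb2. Capitals mark the GC box GGGCGG or its reverse complement.
Epha4: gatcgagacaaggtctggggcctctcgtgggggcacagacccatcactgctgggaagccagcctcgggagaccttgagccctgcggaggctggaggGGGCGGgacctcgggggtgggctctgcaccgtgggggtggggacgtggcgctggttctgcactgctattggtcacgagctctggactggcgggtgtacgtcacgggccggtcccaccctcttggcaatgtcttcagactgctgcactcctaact
Epha7: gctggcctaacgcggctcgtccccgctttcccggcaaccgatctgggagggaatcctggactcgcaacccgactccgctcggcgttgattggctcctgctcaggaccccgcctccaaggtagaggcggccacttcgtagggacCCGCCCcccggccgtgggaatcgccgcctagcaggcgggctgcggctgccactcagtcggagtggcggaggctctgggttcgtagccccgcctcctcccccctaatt
Ephb2: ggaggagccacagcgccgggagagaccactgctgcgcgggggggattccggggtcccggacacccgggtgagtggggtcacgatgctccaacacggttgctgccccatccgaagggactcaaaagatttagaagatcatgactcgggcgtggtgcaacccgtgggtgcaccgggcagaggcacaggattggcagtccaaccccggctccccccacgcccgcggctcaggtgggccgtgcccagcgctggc
A GC box was found in 6 of the 10 members' windows (Efnb2 3, Efna1 1, Efna5 4, Ephb3 2, Epha4 1 and Epha7 1) and in 0 of the windows of Efnb1, Ephb1, Ephb2 and Epha3, which does not follow the sign of their estimates. Over all genes, 32.7% of 32851 RefSeq windows of this length, several per gene where starts differ, held at least 1. The other motifs were searched, also on both strands, were TAATTG, a homeodomain core, CATCTG, an E-box bound by Twist1, and CACGTG, another E-box. None of the 10 members' windows held any of these 3, which were found in 7.17%, 14.4% and 6.02% of all windows. The windows held 14 (Epha4), 25 (Epha7) and 20 (Ephb2) CpG dinucleotides, against a median of 6 over all windows (quartiles 2 and 16). Epha4 thus lies between the quartiles. All 10 members' windows held 10 to 32 CpG, and the 3 genes shown lie inside that range.

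The libraries held 44919889 to 50022829 estimated counts, and each member had between 648 (Ephb1) and 19219 (Epha3) counts in every library. Prmt1 was lower in the deletion libraries (208 ± 8.47 CPM against 251 ± 5.95 CPM in controls, SD, n = 3 each, edgeR adjusted p = 0.0113), a call lost with sex as a covariate and without control 213, deletion 208 or deletion 211. CPM are counts relative to the TMM-scaled library size, and n is 3 libraries a group throughout. No label states that every library is from a different embryo, so what the p-values cover is the spread among these 6 libraries. Controls 212 and 213 were male by their Y-linked genes (247 and 254 CPM over 4 genes) and the other 4 libraries were not (at most 0.402 CPM). Control 220 is thus not from the same embryo as 212 or 213. With sex as a covariate the group difference rests on control 220 alone. Hbb-y, an early globin gene, was lower relative to later globin genes in controls 212 and 213 (0.0946 and 0.0779) than in control 220 (0.2). Deletion 208, 211 and 221 were at 0.191, 0.196 and 0.32. The sex covariate also takes up whatever else sets 212 and 213 apart from 220. Which of these differences moved the calls was not tested. The mesenchymal markers Prrx1, Osr2, Twist1, Pdgfra, Col1a1 and Msx1 were present in every library and 0 of 6 passed. Their sums, 5120 to 6280 CPM (control) and 4170 to 4940 CPM (deletion), did not overlap, and most of each sum was Col1a1 (means of 4080 and 2820 CPM, edgeR adjusted p = 0.0713). The other markers did not share its fall. Log2 fold changes (deletion minus control) were 0.05, 0.15 and 0.15 for Prrx1, Osr2 and Pdgfra, and -0.03 and -0.15 for Twist1 and Msx1. In bulk tissue, fewer cells of a type and less RNA per cell cannot be told apart.

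Of the 10 members, 1 rose (Epha4), 0 fell and 9 did not pass, in a quasi-likelihood F test (edgeR) adjusted by Benjamini-Hochberg over all 19284 genes, at a threshold of 0.05. Over all tested genes 7.01% passed, 3.65% as rises and 3.37% as falls. With 1 of 10 called, the members' share is near this background. Unadjusted p was under 0.05 for 6 members and for 22.5% of all genes. With sex as a covariate 0 members passed in edgeR, and 2 had an unadjusted p under 0.05. The 3 deletion and 3 control libraries did not overlap for 6 members (Epha4, Epha7, Ephb3 and Efnb1 higher, Ephb2 and Efna1 lower), and for 27.5% of all genes. The median log2 fold change (deletion minus control) was 0.04 over the members and close to 0 over all genes, where the quartiles were -0.147 and 0.126.

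**Figure D1:**
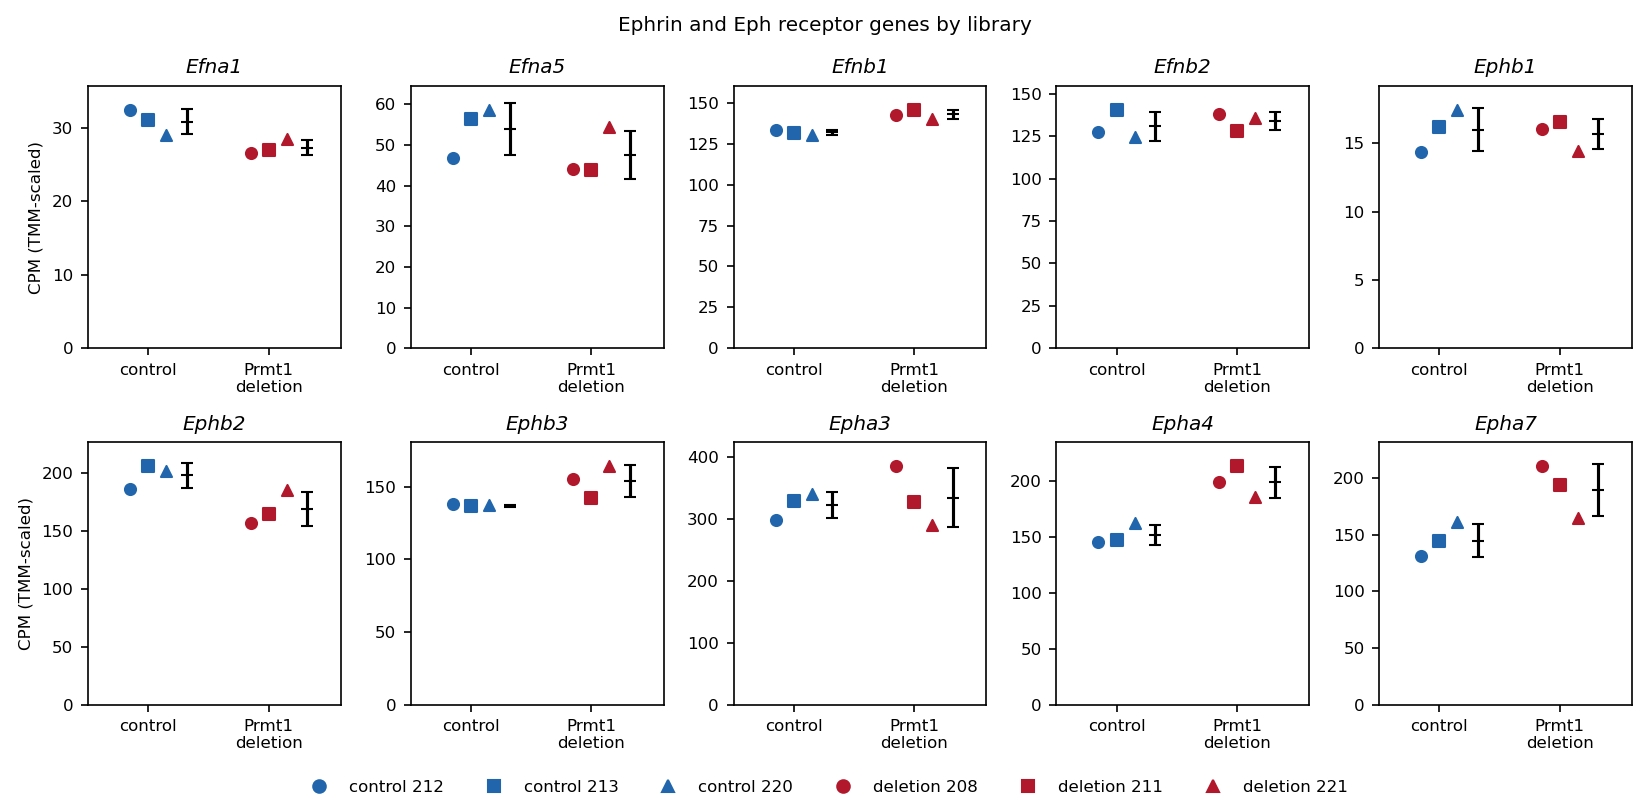
CPM (TMM-scaled, axes from 0) of the 10 genes in each library, with controls in blue and Prmt1 deletion in red, and mean and SD of 3 libraries beside the points. Epha4 lies at 145.8 to 162.1 CPM in controls and 185.8 to 213.4 CPM in deletion libraries, whereas Efnb2, Efna5, Ephb1 and Epha3 overlap between groups.

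Of the EphA receptors, Epha4 and Epha7 had the largest estimates of the 10 members and Epha3 one of the smallest. Epha4 (chromosome 1, 77367185 to 77515088, mm10, minus strand) encodes a receptor that, unusually for its class, binds B-type as well as A-type ephrins. Controls 212, 213 and 220 gave 145.8, 147.3 and 162.1 CPM, and deletion 208, 211 and 221 gave 199.1, 213.4 and 185.8 CPM, the order used for all values that follow. Every deletion library lay above every control, and the nearest pair was control 220 and deletion 221. This is a log2 fold change of 0.39 ± 0.06 (SE, 95% interval 0.25 to 0.54, edgeR adjusted p = 0.00574), which placed Epha4 at rank 256 by p among all genes. The call was lost without control 213 (0.37, edgeR adjusted p = 0.0506) and with sex as a covariate (0.30, edgeR adjusted p = 0.158), and the direction was kept in all 14 alternatives.

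Epha7 (chromosome 4, 28813131 to 28967499, plus strand), a receptor for A-type ephrins known from boundary formation in the nervous system, varied more from library to library. Its controls gave 131.0, 144.3 and 161.0 CPM, against 210.8, 193.7 and 165.3 CPM with the deletion. The groups did not overlap, but control 220 and deletion 221 differed little. On the log2 scale the difference was 0.39 ± 0.10 (SE, 95% interval 0.16 to 0.61, edgeR adjusted p = 0.0556). It passed without deletion 221 (0.48, edgeR adjusted p = 0.00968), without control 220 (0.46, 0.0277) and with the DESeq2 Wald test (0.38, adjusted p = 0.00148), and with sex as a covariate it was 0.24 (edgeR adjusted p = 0.444).

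Epha3 (chromosome 16, 63543534 to 63864175, minus strand), a receptor for ephrin-A5 that is abundant in embryonic mesenchyme, had the highest CPM of the 10 and no clear difference. Control values were 298.4, 328.2 and 339.5 CPM, and deletion values 384.8, 327.5 and 289.0 CPM. The deletion libraries held the highest and the lowest value of all 6, with the controls between them. Its log2 fold change was 0.05 (95% interval -0.17 to 0.27, edgeR adjusted p = 0.817), and its sign changed in 3 of 14 alternatives.

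Of the EphB receptors, the main partners of B-type ephrins, 0 of 3 passed. Ephb2 (chromosome 4, 136647539 to 136835988, minus strand) went from 186.1, 206.1 and 201.7 CPM in controls to 156.6, 165.0 and 185.3 CPM with the deletion. All deletion values were below all controls, deletion 221 by less than 1 CPM. The difference on the log2 scale was -0.23 ± 0.07 (SE, 95% interval -0.38 to -0.08, edgeR adjusted p = 0.0716). Ephb2 passed without deletion 221 (-0.30, edgeR adjusted p = 0.00979), with no filter on low counts (edgeR adjusted p = 0.0183) and with the DESeq2 Wald test (adjusted p = 0.028).

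Ephb3 (chromosome 16, 21204755 to 21223305, plus strand), which acts together with Ephb2 in palate closure, had an estimate above 0. Its controls were nearly identical at 138.1, 136.8 and 137.1 CPM, and the deletion libraries measured 155.5, 142.3 and 164.2 CPM. Every deletion library was above the controls, deletion 211 by the least. Its estimate was 0.17 on the log2 scale (95% interval 0.04 to 0.29, edgeR adjusted p = 0.118), and it passed in 0 of 14 alternatives.

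Ephb1 (chromosome 9, 101922128 to 102354693, minus strand), a receptor known from axon guidance, was the lowest member. Controls were at 14.33, 16.17 and 17.45 CPM, and the deletion libraries, at 16.02, 16.56 and 14.47 CPM, lay within that range. Its log2 fold change was -0.03 (95% interval -0.25 to 0.19, edgeR adjusted p = 0.914). Its exons overlap 152 bases of a noncoding gene on the opposite strand, whose reads cannot be separated here because the strand setting is not given in the sources used here.

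Of the B-type ligands, Efnb1 (chromosome X, 99136130 to 99148991, plus strand) was the most uniform within groups. Ephrin-B1 directs cell sorting in the palatal mesenchyme, and its gene is X-linked. The controls read 133.4, 131.3 and 130.6 CPM, compared with 142.3, 145.7 and 140.1 CPM under deletion. The male controls 212 and 213 and control 220, not male by its Y-linked genes, lay within 3 CPM of each other. All deletion libraries were above them. Its log2 fold change was small, 0.11 ± 0.05 (SE, 95% interval 0.01 to 0.22, edgeR adjusted p = 0.172), and it lay between 0.10 and 0.13 in all 14 alternatives without passing in any.

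Efnb2 (chromosome 8, 8617434 to 8661242, minus strand), also a marker of arterial endothelium, gave 127.3, 140.6 and 124.8 CPM in controls, against 138.0, 128.1 and 135.8 CPM with the deletion. The deletion values all lay within the control range. The 95% interval of its log2 fold change of 0.03 ran from -0.10 to 0.16 (edgeR adjusted p = 0.799), which leaves out the size estimated for Epha4. Of 8 endothelial markers 0 passed, with sums of 430 to 448 CPM (control) and 393 to 432 CPM (deletion).

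Of the A-type ligands, Efna1 (chromosome 3, 89271733 to 89281142, minus strand), the usual ligand of EphA2 in epithelium and vessels, was at 32.43, 31.04 and 29.04 CPM in controls, and at 26.55, 26.97 and 28.48 CPM with the deletion. The groups did not overlap, with control 220 and deletion 221 within 1 CPM. The estimate was -0.17 on the log2 scale (95% interval -0.33 to -0.02, edgeR adjusted p = 0.176) and -0.09 with sex as a covariate.

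Efna5 (chromosome 17, 62604184 to 62881317, minus strand), a ligand of Epha3, Epha4 and Epha7 that also binds EphB2, had control values of 46.75, 56.38 and 58.62 CPM and deletion values of 44.15, 43.95 and 54.45 CPM. Control 212 and deletion 221 crossed into the other group's range. Its log2 fold change was -0.18 (95% interval -0.42 to 0.06, edgeR adjusted p = 0.359).

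**Figure D2:**
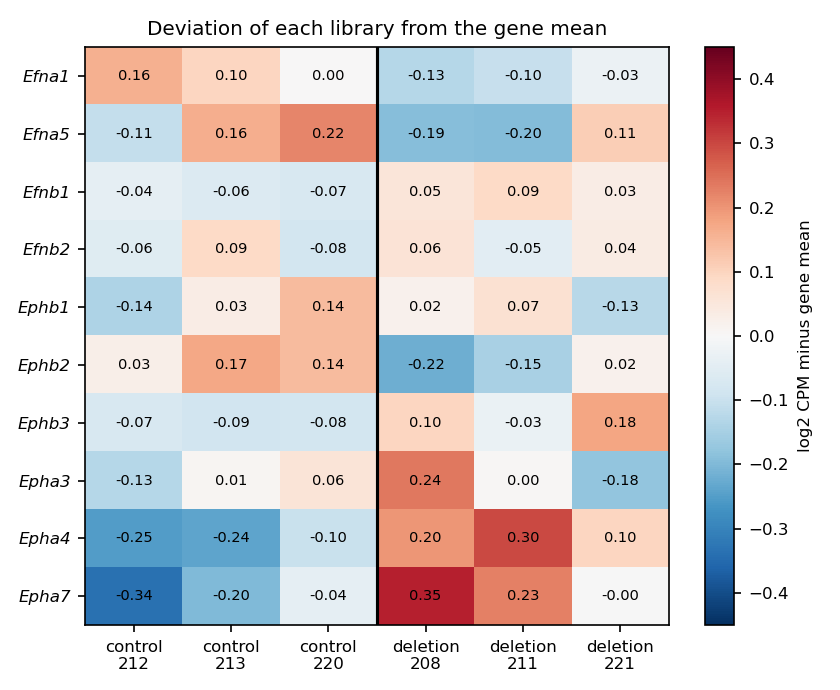
Log2 CPM of each of the 10 genes in each library, minus the mean of that gene over the 6 libraries. Epha4 and Epha7 are below their means in all controls, and Epha7 runs from -0.34 in control 212 to 0.35 in deletion 208, whereas in deletion 221 it is at its mean.

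Several members ranked the libraries of a group alike. In 5 of the 10 (Efna5, Ephb1, Epha3, Epha4 and Epha7), control 212 was the lowest and control 220 the highest control, as in 20.6% of all genes. In 2 others (Efnb1 and Efna1) the order was the reverse, as in 20.9% of all genes. The homeobox gene Msx1, a marker of anterior palatal mesenchyme, had the control order of those 5 (51.66, 122.2 and 178.2 CPM). In deletion 208, 211 and 221 Msx1 was at 69.01, 61.13 and 188.2 CPM. Shox2, another marker of that tissue, did not share this order. It was at 160.7, 160.4 and 153.8 CPM in controls and 181.9, 188.1 and 153.5 CPM in deletion libraries. The part of either gene or of that tissue in the members' values was not tested. Among the 6 members whose groups did not overlap, deletion 221 was nearest to the controls in 5 (all but Ephb3), as it was in 44.1% of such genes among all tested. Over all tested genes, the first principal component (main axis of variation between libraries, 41.1% of variance) set the groups apart. On the second (21.1%), control 220 and deletion 221 lay at -30 and -31.8. Controls 212 and 213 lay there at 22.4 and 5.43, and deletion 208 and 211 at 17.8 and 16.1. What sets 220 and 221 apart was not tested.

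Relative to exon length, the order of the members in controls began with Efnb1 (38.2 ± 0.433 CPM per kilobase of exon, SD) and Epha3 (37.1 ± 2.44), whose library ranges overlapped. Ephb3 followed at 20.7 ± 0.101 CPM per kilobase, above Efnb2 (19.1 ± 1.24) and Epha4 (18.8 ± 1.12), which did not differ from each other beyond their spread. Efna1 (16.9), Ephb2 (15.7), Epha7 (14.7) and Efna5 (13.4 CPM per kilobase) came next, each overlapping its neighbour, and Ephb1 was lowest at 2.28 ± 0.224. In deletion libraries Epha4 moved from place 5 to place 3 (24.8 ± 1.71 CPM per kilobase) and Epha7 from 8 to 6 (19.2 ± 2.33). There the library range of Epha4 (23.1 to 26.5) overlapped that of Ephb3 (21.4 to 24.7). That of Epha7 (16.7 to 21.3) overlapped that of Efnb2 (18.7 to 20.1). Lengths are those of all annotated exons of a gene joined, which need not match the transcripts used in the palate.

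The ratio of Epha4 to Epha7 per kilobase was 1.28 ± 0.0702 in controls and 1.30 ± 0.12 in deletion libraries (SD). Summed per kilobase, the 3 EphA members reached 65.7, 70.6 and 75.5 CPM without and 90.3, 83.8 and 73.0 CPM with the deletion, which overlapped. The 3 EphB members summed to 38.7 ± 0.923 and 38.8 ± 2.39 CPM per kilobase.

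**Figure D3:**
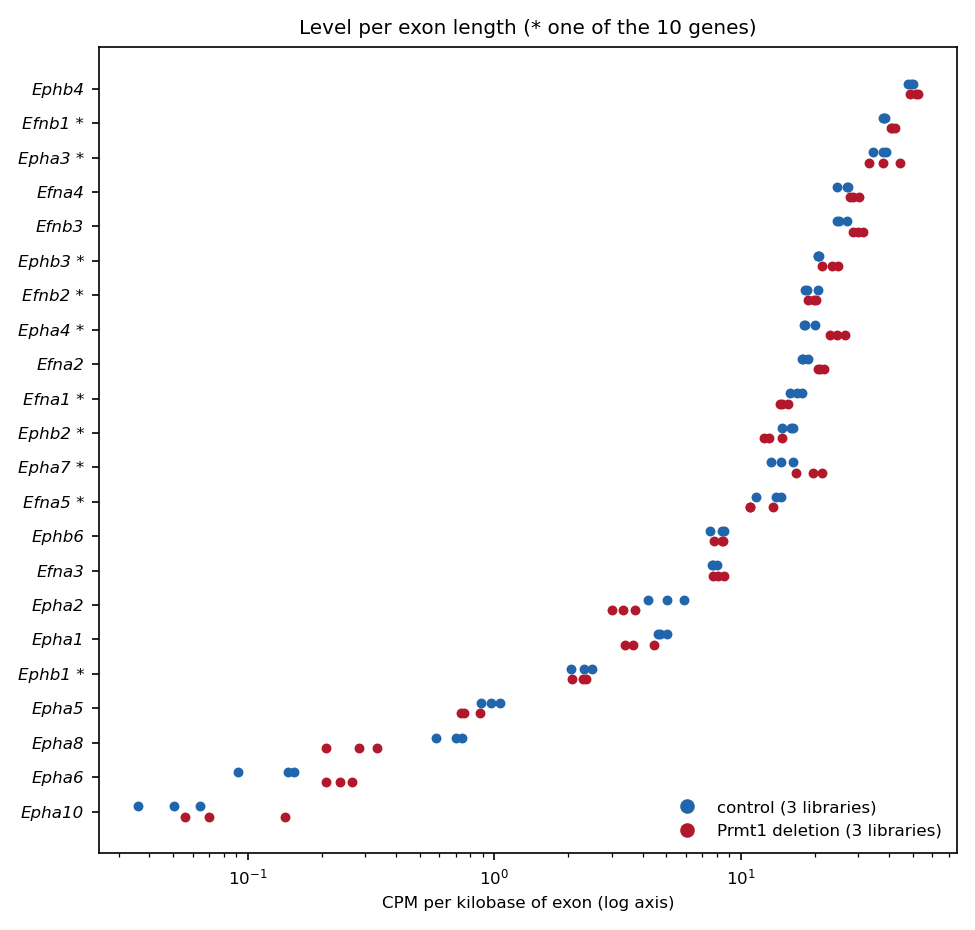
CPM per kilobase of exon (log axis) of all 22 genes of the family, with 1 point per library, controls in blue and Prmt1 deletion in red. Ephb4, Efnb1 and Epha3 are highest, and Epha5, Epha8, Epha6 and Epha10 lie below about 1 CPM per kilobase.

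The other 12 genes of the family were all tested, and 1 rose, 2 fell and 9 did not pass (7.01% of all genes passed). Efnb3, the remaining B-type ephrin, rose 1.17-fold, from 86.17, 78.03 and 79.52 CPM to 95.58, 90.55 and 100.1 CPM (0.23 ± 0.06 on the log2 scale, edgeR adjusted p = 0.0376). It passed in 6 of 14 alternatives, and in 1 of the 6 that leave out a library. Together with Efnb1 and Efnb2 it brought the B-type ephrins to 84.3, 83.1 and 81.0 CPM per kilobase in controls and 91.4, 89.3 and 91.8 in deletion libraries, which did not overlap. The 5 A-type ephrins summed to 82.4 ± 0.379 and 84.9 ± 4.26 CPM per kilobase (SD).

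Epha2, an EphA receptor mainly of epithelia, fell 1.5-fold, from 19.59, 23.60 and 27.55 CPM to 14.08, 15.60 and 17.50 CPM (-0.58 ± 0.13 on the log2 scale, edgeR adjusted p = 0.0221). It was the family gene that also passed with sex as a covariate (-0.81, edgeR adjusted p = 0.0438), and it did not pass without control 213, deletion 208 or deletion 211 (edgeR adjusted p = 0.0989, 0.0947 and 0.0818). Of 10 epithelial markers 5 fell and 0 rose (median log2 fold change -0.43), with sums of 1250 to 1310 CPM (control) and 777 to 1030 CPM (deletion), and 0 markers were at 0. With sex as a covariate 2 of the 10 fell (median -0.29). Their part in the values of Epha2 and Efna1 was not tested.

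Epha8, an EphA receptor best known from the nervous system, had the largest fall of the family, 2.46-fold, from a low level of 3.497, 3.314 and 2.750 CPM to 0.9811, 1.577 and 1.339 CPM (-1.30 ± 0.23 on the log2 scale, edgeR adjusted p = 0.00845). It did not pass without control 213 (-1.27, edgeR adjusted p = 0.0531) or with sex as a covariate (-1.08, edgeR adjusted p = 0.149). Of 8 neuronal markers 0 passed, and all 8 had estimates above 0, with sums of 56.5 to 66.8 CPM (control) and 79.7 to 142 CPM (deletion). Their part in the values of Epha8 was not tested. Of the family genes that did not pass, Ephb4, the venous partner of ephrin-B2, had the highest level of the family. It was at 48.9 ± 1.17 (control) and 50.8 ± 2.05 CPM per kilobase (deletion, edgeR adjusted p = 0.611). Efna4, Efna2 and Ephb6 had log2 fold changes of 0.14, 0.22 and 0.02 (edgeR adjusted p = 0.237, 0.0508 and 0.937).

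**Figure D4:**
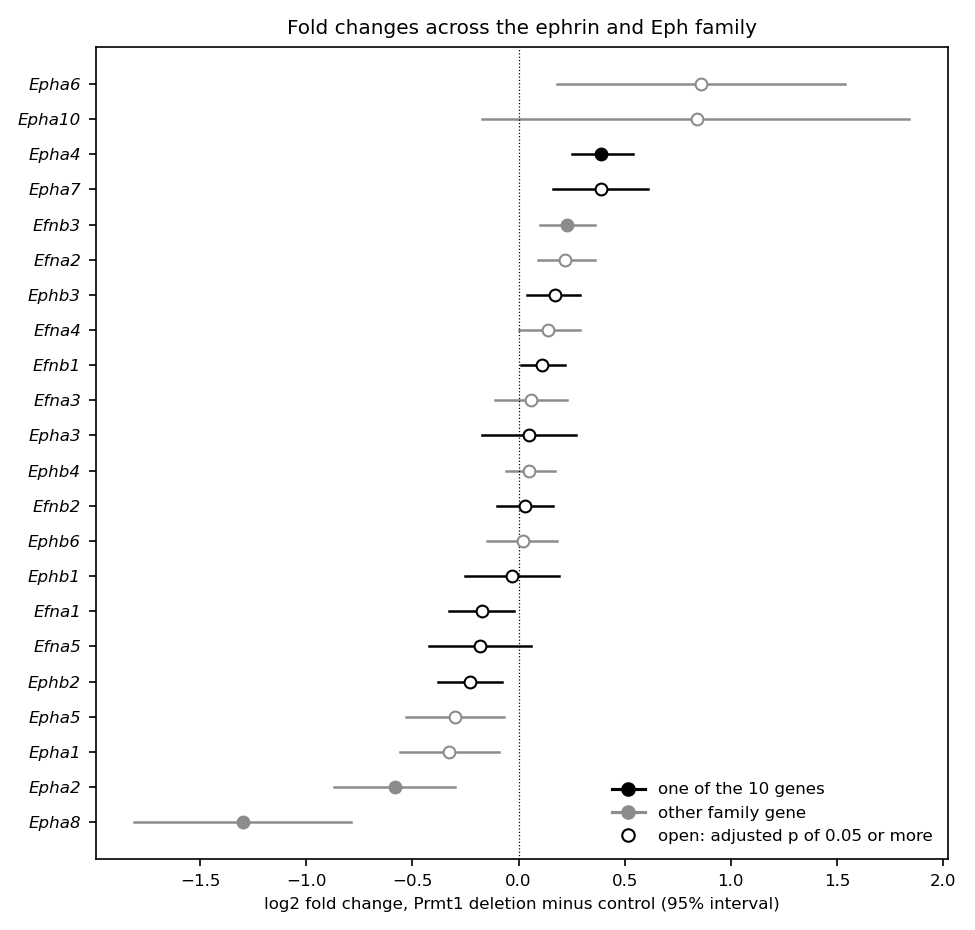
Difference in log2 CPM, Prmt1 deletion minus control, with its 95% interval for the 22 genes, black for the 10 members and grey for the other 12, filled where edgeR's adjusted p is under 0.05. Epha4 and Efnb3 are the filled points above 0, and Epha2 and Epha8 those below.

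Markers of other tissues also differed between the groups. Of 8 skeletal muscle markers 6 rose, with sums of 397 to 450 CPM (control) and 725 to 1150 CPM (deletion). Of 6 cartilage markers 4 rose (253 to 385 and 604 to 679 CPM). Of 6 markers of Schwann cells and glia 1 rose (72.2 to 77.4 and 83.5 to 113 CPM). Bone markers summed to 834 to 1210 and 156 to 322 CPM, with 0 of 5 tested passing. In the posterior palate list Barx1 rose (190 ± 15 and 259 ± 7.04 CPM, edgeR adjusted p = 0.00275) and Meox2 and Tbx22 did not pass. In the anterior list 0 of 2 passed. With sex as a covariate 3 muscle and 2 cartilage markers rose, and 0 of the glial markers and 0 of the posterior list passed (Barx1 0.38 on the log2 scale, edgeR adjusted p = 0.102). The part of these cells in the values of Epha4 and Epha7 was not tested.

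Of 41 genes that act with Eph receptors (kinases, adaptors, phosphatases, exchange factors and the shedding protease Adam10), 0 rose, 3 fell and 38 did not pass, a share of 7.32% against 7.01% of all genes. The median log2 fold change was 0.01. Stat3, a transcription factor of cytokine signalling that also joins ephrin-B signalling, fell 1.29-fold, from 105.8, 109.1 and 97.67 CPM to 79.06, 83.96 and 79.58 CPM (edgeR adjusted p = 0.00428). It passed with each library left out in turn and not with sex as a covariate (-0.27 on the log2 scale, edgeR adjusted p = 0.123). Vav3, an exchange factor, fell 1.24-fold (22.0 ± 1.47 and 17.7 ± 0.918 CPM, edgeR adjusted p = 0.0465). Rgs3, whose PDZ-containing form binds the tail of B-type ephrins, fell 1.18-fold (50.4 ± 1.99 and 42.6 ± 2.43 CPM, edgeR adjusted p = 0.049). With sex as a covariate 0 of the 41 passed. With 1 library left out, Vav3 passed in 0 of 6 cases and Rgs3 in 1.

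Genes with the most similar pattern were found by the root mean square difference of log2 CPM, each centred on its own mean, over the 6 libraries and 12455 protein-coding genes. For Epha7, the member with the widest range over libraries, these were Plekhh1, Adamtsl2 and Cntn3 (differences 0.0518, 0.0529 and 0.0567). Cntn3, which encodes a contactin adhesion protein, went from 16.9, 19.6 and 21.7 CPM to 30.6, 27.4 and 23.4 CPM (0.49 on the log2 scale, edgeR adjusted p = 0.0321). Its call was kept in 2 of 6 cases with a library left out, and was lost with sex as a covariate (0.32, edgeR adjusted p = 0.389). For Efnb1 they were Tspyl1, Wtap and Strn4 (0.0148, 0.0152 and 0.0161). Like Efnb1, each was slightly higher in every deletion library than in every control and did not pass (log2 fold changes 0.09, 0.13 and 0.11).

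**Figure D5:**
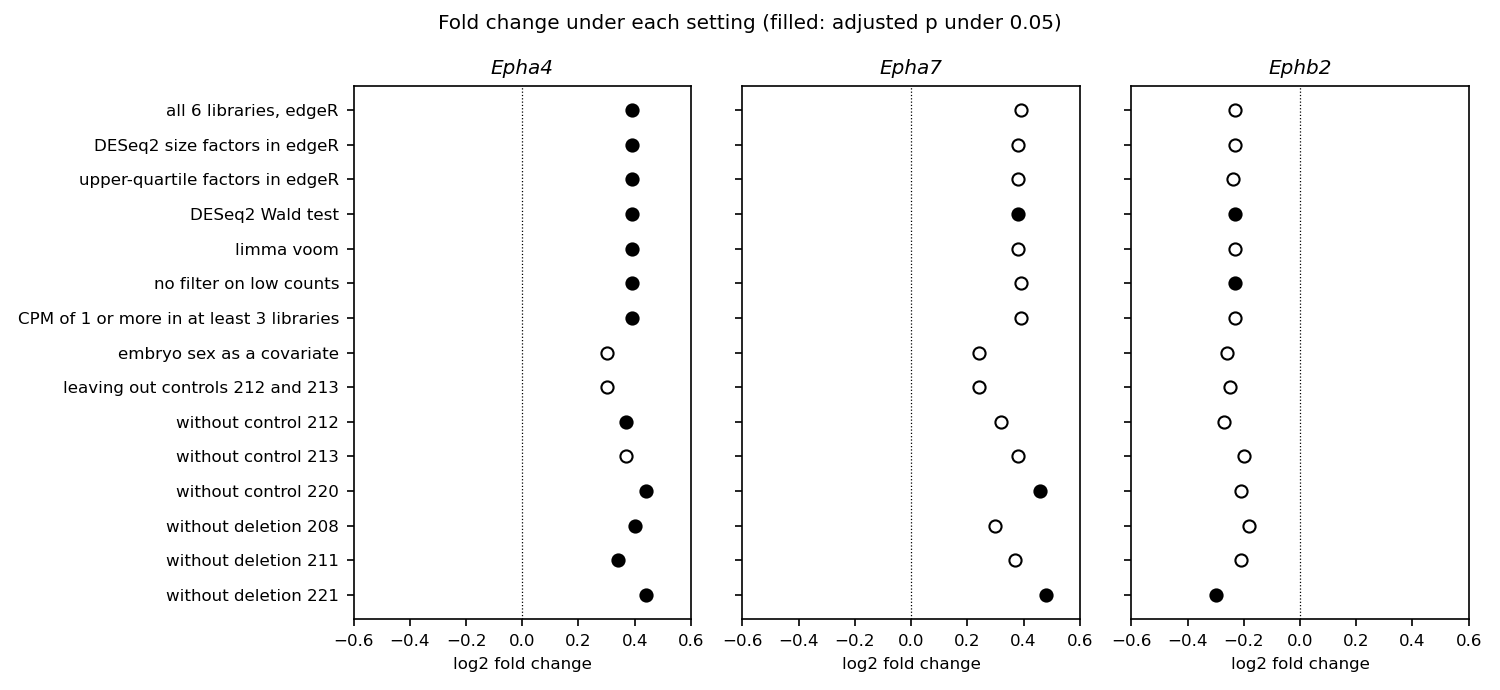
Estimated log2 fold change, deletion minus control, of Epha4, Epha7 and Ephb2 with all 6 libraries and under each of 14 alternatives, filled where the adjusted p is under 0.05. Epha4 stays between 0.30 and 0.44, Epha7 between 0.24 and 0.48 and Ephb2 between -0.30 and -0.18.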

How the data were processed

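The authors deposited 1 table of estimated counts per gene, not normalized, for 6 libraries. These estimated counts were made by the authors with tools whose roles are not recorded. The submitters' processing notes name CASAVA 1.8.2, STAR 2.4.1d, Partek and the build mm10. Not given in the sources used here are the gene annotation and the strand setting. Column names give the group and a library number that no label holds. Counts were rounded, filtered with filterByExpr (minimum count 10, minimum total 15), scaled by TMM and tested with edgeR 4.0.16 in R 4.3.3 (glmQLFit with robust=TRUE, glmQLFTest, no covariate). The SE was taken as the absolute log2 fold change over the root of F. Coordinates and exon lengths come from GENCODE M21 (GRCm38, named mm10), and upstream sequences from RefSeq. Alternatives were other scalings and filters, DESeq2 1.42.0, limma 3.58.1 voom, embryo sex, and leaving out libraries. Tested on simulated data for this comparison (19284 genes, sets of 50 altered by a known amount), 4% of changes of 1.2-fold were called, 70% at 1.5-fold and 78% at 2-fold, beside 19 false calls. Libraries of the same group differed by more than sampling noise in each pair (chi-square over its degrees of freedom, 7.79 to 38.0). This value was 14.1 for controls 212 and 213, 7.79 for deletion 208 and 211, and 23.4 to 38.0 for pairs that held 220 or 221. The members and lists were chosen with earlier results of these data known. Named were all members, other family genes that passed or had the highest level per kilobase, genes of the signalling list of smallest p past the threshold, and the nearest patterns. Marker lists served as checks. Epha5, Epha6 and Epha10 were named after their values were seen.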

Additional observations from a re-analysis of the deposited data

How the results depend on the processing

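All 14 alternatives kept the direction of Epha4, Epha7, Ephb2, Ephb3, Efnb1, Efna1 and Efna5, while the estimates of Ephb1 and Epha3 changed sign in 2 and 3 of them. The number of members called, 1, became 3 with the DESeq2 Wald test (Epha4, Epha7 and Ephb2), 2 without a filter on low counts, and 0 with sex as a covariate or without controls 212 and 213, where edgeR gave 2 members an unadjusted p under 0.05 in each. With 1 library left out it ran from 0 (without control 213, where 3 had an unadjusted p under 0.05) to 3 (without deletion 221). Over all genes, the 1352 calls became 2125 with the DESeq2 Wald test, 129 with sex as a covariate, 89 without controls 212 and 213, and 356 (without control 213) to 1872 (without deletion 221) with 1 library left out, with 545 without deletion 208 and 711 without deletion 211. Leaving out controls 212 and 213 leaves 1 control, which is assumed to vary like the deletion libraries. The cause of these moves was not tested. No paired analysis was possible because the numbers in the column names are in no label. The estimates of the 10 members were at most 1.31-fold in either direction. All lay below 1.5-fold, the size at which 70% of altered genes were called on simulated data. Recovery for genes with the members' counts was not tested separately.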
